A study of Homo sapiens with 4 samples.

Results

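The urokinase receptor system was described by 8 listed genes in the established colon cancer line HCT116 after forced expression of PRSS8. Genes were found by symbol among probe sets that the platform annotation gives exactly 1 symbol. Of the 8, 6 were matched (PLAUR, PLAU, PLAT, PLGRKT, MMP14 and TIMP1), out of 22411 genes in all, each by 1 probe set, so that no choice between probe sets had to be made. SERPINB2 had no probe set with its symbol in the annotation used, and the probe set that lists TIMP2 also lists CEP295NL, so neither is analysed here. The set was chosen by the measured difference of PLAUR between the groups, with that of its relatives also known, so the values below are descriptions of these 4 arrays and carry no test.

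The arrays were 2 of cells transiently transfected with PRSS8 expression plasmids and 2 of cells transfected with the vector control. The labels number them 1 and 2 in each group as biological replicates and do not say whether a number marks a shared culture or day. Nothing in the labels gives the time between transfection and collection or the share of cells that took up the plasmid. All 4 arrays hold bulk RNA, in which a change per cell and a change in the share of cells that express a gene cannot be told apart.

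Urokinase, the product of PLAU, is a secreted serine protease that cleaves plasminogen to plasmin, and its receptor, the product of PLAUR, is a glycolipid-anchored protein that holds urokinase at the cell surface. Tissue plasminogen activator (PLAT) makes the same cut, mainly in clots, and plasminogen itself is bound at the membrane by receptors such as the product of PLGRKT. Plasmin breaks down fibrin and matrix proteins and activates matrix metalloproteinases, among which MMP14 is anchored in the membrane, and TIMP1 is a secreted inhibitor of these enzymes. In colon cancer the system is known for its part in invasion.

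The level of PRSS8, which encodes the membrane serine protease prostasin, was 18.55 and 18.07 on the PRSS8 arrays (replicates 1 and 2), against 10.45 and 11.18 on the control arrays, all values being log2 RMA levels. Arrays of the same number were alike: across genes, which are not independent replicates, Pearson's r was 0.996 between the arrays of number 1 and 0.989 between those of number 2, but 0.934 between the PRSS8 arrays and 0.93 between the control arrays. Differences are therefore also given within each number. The label's cell type was borne out by high levels of the epithelial genes EPCAM, KRT8, KRT18, KRT19 and CDH1, and the 4 measured fibroblast and 4 endothelial markers lay between 3.12 and 4.03. Of 5 leukocyte markers, PTPRC, CD14, LYZ and CD3E lay between 3.21 and 3.87, but CD68, a lysosomal protein abundant in macrophages, was at 8.47 and 9.44 on the PRSS8 arrays, against 7.23 and 8.11 on the control arrays. Summed on the linear scale the leukocyte list was at 397 and 746 on the PRSS8 arrays, against 194 and 326 on the control arrays, nearly all of it CD68. The other 4 markers summed to 43.2 and 51.7 on the PRSS8 arrays, against 44.1 and 50.2 on the control arrays, with the pan-leukocyte marker PTPRC near the array medians (3.60 to 3.92 over transcript clusters). The part of CD68 in the results below was not tested.

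No gene passed the test over the whole table. By limma, the PRSS8 arrays had 0 of 22411 genes higher (0%) and 0 lower (0%) at a Benjamini-Hochberg adjusted p under 0.05, where 17 genes were higher (0.0759%) and 25 lower (0.112%) at an unadjusted p under 0.05. With 2 arrays against 2, an exact permutation test cannot give a two-sided p below 0.333. None of the 6 genes passed, and PRSS8 itself did not. With a term for the replicate number in the fit, the SE of PRSS8 was 0.37 in place of 0.57. Its adjusted p in limma was then 0.076, which still did not pass. As a count by size, genes were also taken whose lowest array in one group stood at least 1.5-fold above the highest of the other. There were 16 such genes higher (0.0714%) and 8 lower (0.0357%) on the PRSS8 arrays, a split that was 28 to 6 after median centring and 11 to 11 after quantile normalization. Without a fold limit the groups did not overlap for 5.53% of all genes higher and 5.56% lower.

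PLAUR, the receptor, had the largest difference of the 6 genes. Its level (probe set TC19001593.hg.1) was 7.83 and 8.45 on the PRSS8 arrays, against 7.14 and 6.65 on the control arrays. Both PRSS8 arrays stood above both control arrays, and the narrowest gap, between the replicate 1 arrays, was 0.69 or 1.61-fold, which puts PLAUR among the 16 genes above. The group means were 8.14 ± 0.44 on the PRSS8 arrays and 6.89 ± 0.35 on the control arrays (SD, n = 2 each). They differed by 1.25 (moderated SE 0.56), or 2.38-fold, which is larger than the spread between replicates in either group. Within number 1 the difference was 0.69 (1.61-fold) and within number 2 it was 1.81 (3.50-fold). From replicate to replicate PLAUR ran opposite ways in the groups, 0.62 higher on the replicate 2 array than on the replicate 1 array with PRSS8 and 0.50 lower with the control vector (−0.50). Whether the effect differed between the numbers was not tested, since each number holds a single array per group. Of all other genes, PRSS8 included, 10 had a difference at least as large as that of PLAUR within both numbers.

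PLAU, which encodes the ligand of that receptor, was at 6.37 and 6.91 on the PRSS8 arrays, against 6.19 and 6.15 on the control arrays (TC10000475.hg.1). The groups did not overlap, but the PRSS8 array of number 1 stood only 0.17 above the nearer control array. The means were 6.64 ± 0.38 with PRSS8 and 6.17 ± 0.03 with control (SD, n = 2 each) and differed by 0.47 (SE 0.39), or 1.38-fold. That difference was close to the spread between the PRSS8 arrays. Within number 1 it was 0.17 and within number 2 it was 0.76 (1.69-fold), so that receptor and ligand both differed more within number 2. After quantile normalization the control array of number 2 stood at 6.35, above the PRSS8 array of number 1 at 6.24, and the groups overlapped.

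**Figure D1:**
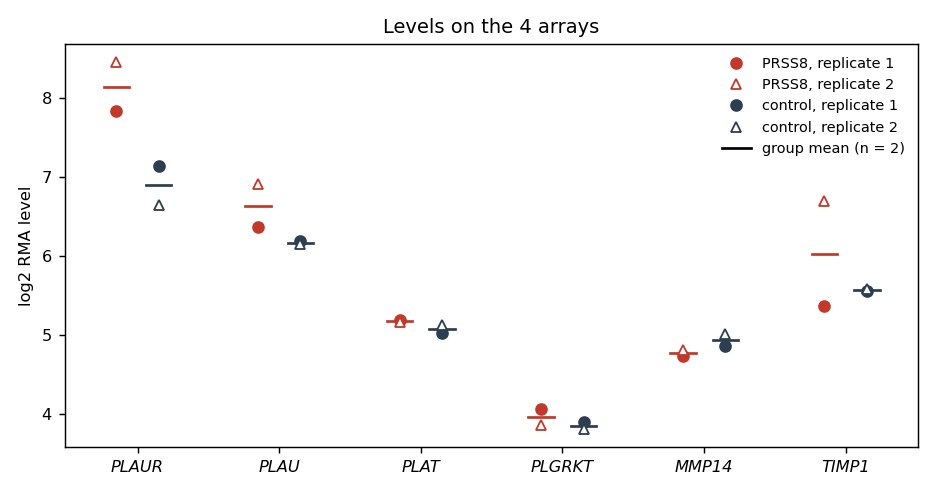
Log2 RMA level (vertical axis) of each matched gene (horizontal axis) on the PRSS8 arrays (left, red) and the control arrays (right, dark), with replicate 1 as filled circles, replicate 2 as open triangles and bars at the group means (n = 2). The PRSS8 arrays of PLAUR, at 7.83 and 8.45, lie above its control arrays at 7.14 and 6.65, while TIMP1 is raised on 1 PRSS8 array, at 6.69. Levels of different probe sets are not comparable with each other.

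The stretch of the genome in front of PLAUR and of PLAU is shown, as the receptor and its ligand. Both had all PRSS8 arrays above all control arrays in the deposited values. So had PLAT, by only 0.03, and its window is not reported here. Each window runs from 250 bases before the annotated start of the gene to 50 bases after it, read 5′ to 3′ on the strand of the gene, from RefSeq on GRCh38.p14. The PLAUR window is chr19:43670120-43670419 on the minus strand and the PLAU window is chr10:73910882-73911181 on the plus strand, 1 of 2 annotated starts of PLAU. Capitals mark a match to the AP-1 motif (TGANTCA) in PLAUR and to the Sp1 motif (GGGCGG) in PLAU.
PLAUR: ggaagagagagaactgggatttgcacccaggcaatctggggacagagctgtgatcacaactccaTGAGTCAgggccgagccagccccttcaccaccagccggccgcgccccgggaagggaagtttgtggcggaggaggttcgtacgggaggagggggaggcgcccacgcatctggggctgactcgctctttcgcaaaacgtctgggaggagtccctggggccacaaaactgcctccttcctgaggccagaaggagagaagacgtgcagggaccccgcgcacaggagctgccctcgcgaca
PLAU: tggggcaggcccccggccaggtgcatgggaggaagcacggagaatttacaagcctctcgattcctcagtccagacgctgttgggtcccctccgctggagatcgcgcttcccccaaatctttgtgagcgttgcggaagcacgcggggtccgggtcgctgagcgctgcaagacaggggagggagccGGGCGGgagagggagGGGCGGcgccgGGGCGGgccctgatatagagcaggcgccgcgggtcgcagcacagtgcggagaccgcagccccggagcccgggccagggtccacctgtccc
AP-1 is a dimer of FOS and JUN family proteins, and Sp1 binds GC-rich promoters. The AP-1 motif was matched 1 time in the PLAUR window, as TGAGTCA at position −186 from the start, and 7.71% of 35116 RefSeq windows of the same length held it on either strand. The Sp1 motif was matched 3 times in the PLAU window, at −66, −51 and −40, and 45% of all windows held it. The PLAUR window held no Sp1 match and the printed PLAU window no AP-1 match. Neither motif was particular to these genes. Sp1 was also matched in the windows of TIMP1 (2 times), PLGRKT and MMP14 (1 time each), and AP-1 in that of SERPINB2 (1 time). The other PLAU window held neither motif. The ATF4 response motif (TGATGNAA, in 3.62% of all windows) and the endoplasmic reticulum stress motif (CCAAT and CCACG with 9 bases of any kind between them, in 0.0769%) were matched in neither the PLAUR window nor the 2 PLAU windows, which says only that these letters are not there. The motifs do not overlap each other in these windows, and a match is not a measured binding site.

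The other activator and the plasminogen receptor differed little. PLAT was at 5.18 and 5.16 on the PRSS8 arrays, against 5.02 and 5.13 on the control arrays (TC08001175.hg.1), a difference of 0.10 (SE 0.21). Its groups were apart by only 0.03, and they overlapped after median centring. PLGRKT, which encodes a membrane protein that binds plasminogen, was at 4.06 and 3.86 on the PRSS8 arrays, against 3.89 and 3.82 on the control arrays (TC09000891.hg.1). Its groups overlapped, with a difference of 0.11 (SE 0.14). All 4 values of PLGRKT lay below the median of all gene means, 4.22. Detection could not be computed, so a small difference at such a level does not show that the gene was unchanged.

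MMP14, the membrane-anchored metalloproteinase, was the only gene of the 6 that was lower within both numbers. Its level was 4.74 and 4.82 on the PRSS8 arrays, against 4.86 and 5.01 on the control arrays (TC14000133.hg.1). The groups did not overlap but were only 0.05 apart, and after median centring they overlapped. The difference was −0.16 (SE 0.19), with −0.12 within number 1 and −0.19 within number 2.

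TIMP1, the secreted inhibitor, went opposite ways in the numbers. It was at 5.36 and 6.69 on the PRSS8 arrays, against 5.56 and 5.58 on the control arrays (TC0X000238.hg.1). The control arrays were alike, while the PRSS8 arrays lay on either side of them, 0.19 below within number 1 (a difference of −0.19) and 1.11 above within number 2 (2.16-fold). The means were 6.03 ± 0.94 with PRSS8 and 5.57 ± 0.02 with control (SD, n = 2 each), and their difference of 0.46 (SE 0.51) was smaller than the spread between the PRSS8 arrays. It rested on the PRSS8 array of number 2, without which it was −0.21.

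Of the 6 genes, 4 were higher within both numbers (26% of all genes) and 1 was lower (24.5% of all genes). Among all genes with a mean level at or above the median, the shares were 31.6% higher and 21% lower. Nothing is read from the count in the 6 genes or from their medians, since the 6 genes were listed with these differences known. Their median difference was 0.28, with 0.17 within number 1 and 0.40 within number 2, where the median of all genes was 0.0006, −0.0012 and 0.0090. The 5 epithelial markers had a median difference of 0.43, with 0.09 within number 1 and 0.78 within number 2. Within number 1 and number 2 in turn, KRT8 differed by 0.09 and 0.78, KRT18 by −0.0032 and 0.997, KRT19 by 0.40 and 0.88 and EPCAM by −0.15 and 0.55. CDH1 did not share this, at 0.19 and 0.17. Whether this bears on PLAUR, PLAU and TIMP1, which also differed more within number 2, was not tested.

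**Figure D2:**
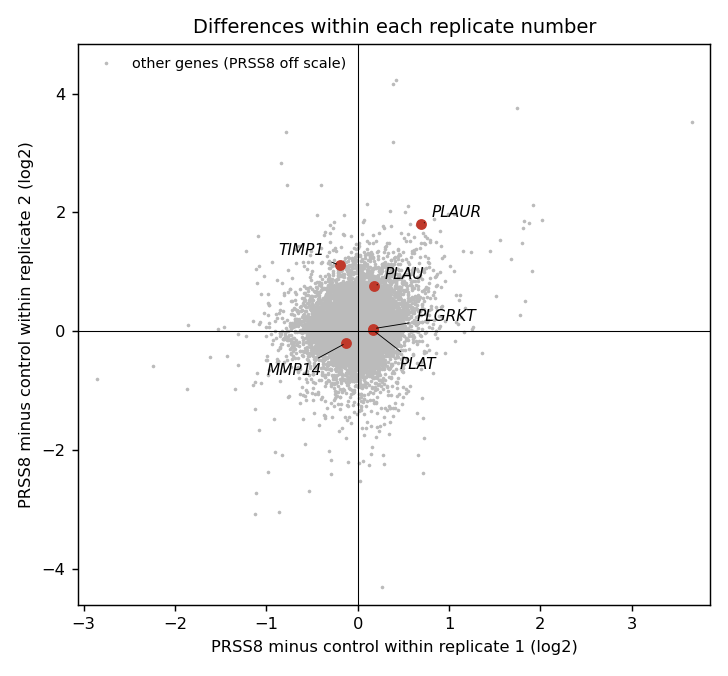
PRSS8 minus control on the log2 scale within replicate 1 (horizontal axis) and within replicate 2 (vertical axis) for every gene but PRSS8 (grey points), with the 6 genes in red. PLAUR, at 0.69 and 1.81, lies at the edge of the cloud in the upper right. PLAU at 0.17 and 0.76 and TIMP1 at −0.19 and 1.11 lie above the centre of the cloud but lower than PLAUR. The other 3 lie in its centre.

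Of 15 further genes of the plasminogen pathway listed, 14 were measured and 0 passed in either direction. Their differences ran from −0.15 to 0.11 around a median of −0.01, with 4 higher and 2 lower within both numbers. The median level of the list, 3.88, lay below the median of all gene means (4.22), where small differences do not show that genes were unchanged. ANXA2, which together with S100A10 forms a plasminogen-binding complex at the cell surface, was at 15.94 and 15.60 on the PRSS8 arrays, against 15.87 and 15.45 on the control arrays. S100A10 itself differed by −0.0024 (SE 0.30), and ENO1, a glycolytic enzyme that also binds plasminogen, differed by 0.03 (SE 0.38). Plasminogen (PLG), a product of the liver, was at 3.48 and 3.72 on the PRSS8 arrays, against 3.50 and 3.99 on the control arrays.

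Partners of the receptor at the cell surface, integrins and endocytic receptors among them, likewise had 0 of 17 measured members past the test (18 listed; vitronectin, VTN, is not analysed here). The median difference was −0.04, with 2 higher and 7 lower within both numbers. CAV1, a coat protein of caveolae, was at 10.01 and 8.64 on the PRSS8 arrays, against 9.42 and 8.22 on the control arrays, a difference of 0.51 (SE 0.89). IGF2R, a receptor that carries proteins to lysosomes, was at 6.22 and 5.27 on the PRSS8 arrays, against 6.92 and 5.47 on the control arrays, a difference of −0.45 (SE 0.63). The groups overlapped for both genes, and the replicate numbers lay further apart than the groups did. Within number 1 and number 2 in turn, CAV1 differed by 0.59 and 0.42 and IGF2R by −0.71 and −0.20. ITGA3 differed by −0.07 (SE 0.73), with −0.21 and 0.08 within the numbers. ITGB1 differed by 0.28 (SE 1.76), with 0.22 and 0.34 within them. These SEs include the shift between the numbers.

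Genes of the LY6/uPAR-domain family, to which PLAUR belongs, had 0 of 12 measured members past the test (13 listed), a median difference of 0.04 and differences between −0.18 and 0.14. Of these, 6 were higher and 2 lower within both numbers. LY6E was at 6.86 and 8.29 on the PRSS8 arrays, against 7.47 and 8.04 on the control arrays, with the groups overlapping. LYPD3 and LYNX1, which come next by level, differed by 0.04 (SE 0.14) and −0.0011 (SE 0.16). LYPD1 differed by 0.14 (SE 0.16) and SLURP1 by 0.12 (SE 0.13). The median level of the list, 3.47, lay below the median of all gene means, where differences are small for most genes.

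Other metalloproteinases and inhibitors had 0 of 25 members past the test, with a median difference of 0.01, 5 higher and 6 lower within both numbers. MMP15, a membrane-anchored relative of MMP14, was at 5.23 and 5.28 on the PRSS8 arrays, against 5.64 and 5.42 on the control arrays, a difference of −0.27 (SE 0.24). As for MMP14, the groups did not overlap. ADAM17, a sheddase of membrane proteins, differed by 0.43 (SE 1.21), with 0.43 within each number, although its level was 2.32 lower on replicate 2 than on replicate 1 in each group (−2.32). BSG, an inducer of metalloproteinases, differed by 0.09 (SE 0.80) and ADAM10, another sheddase, by −0.21 (SE 1.57), with the numbers on opposite sides of 0 for both.

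AP-1 and ETS transcription factors, families known to act on the promoters of PLAUR and PLAU, had 0 of 16 members past the test, with a median difference of 0.08, 7 higher and 5 lower within both numbers. FOSL1, an AP-1 subunit, had the largest difference of the list. Its level was 6.46 and 7.81 on the PRSS8 arrays, against 5.91 and 6.75 on the control arrays, a difference of 0.81 (SE 0.65), with 0.55 within number 1 and 1.07 within number 2. The groups overlapped, since the control array of number 2 stood above the PRSS8 array of number 1. ETS1 was at 6.20 and 5.48 on the PRSS8 arrays, against 5.54 and 5.23 on the control arrays, a difference of 0.46 (SE 0.36). JUN differed by 0.08 (SE 0.63), JUNB by 0.16 (SE 0.81) and ATF2 by 0.15 (SE 0.96). Within number 1 and number 2 in turn, ETS1 differed by 0.66 and 0.25 and JUN by 0.08 and 0.09. JUNB differed by −0.25 and 0.57 and ATF2 by −0.16 and 0.46.

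**Figure D3:**
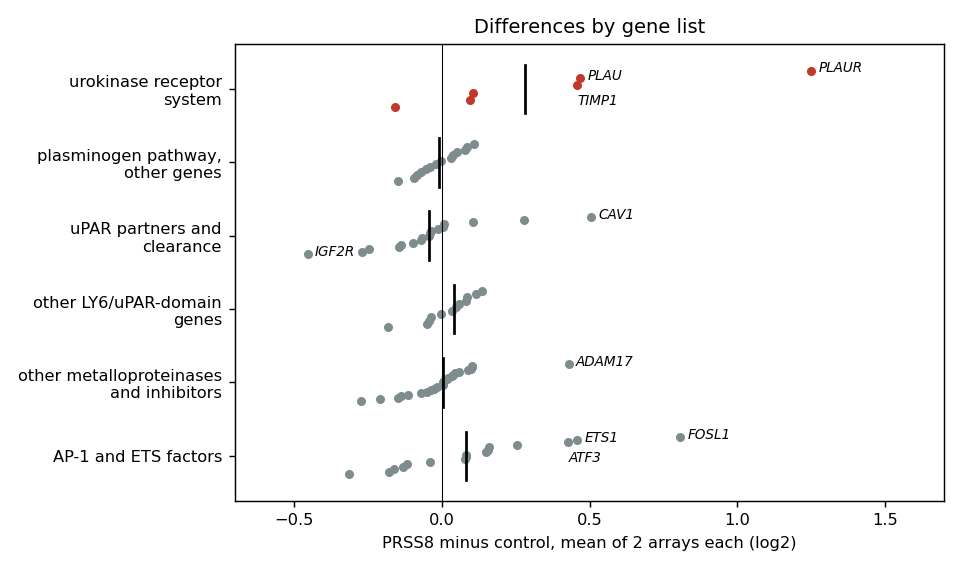
PRSS8 minus control (mean of 2 arrays each, log2, horizontal axis) for each measured gene of the urokinase receptor system (red) and of 5 related lists (grey), with black bars at the list medians and names at differences of 0.4 or more in size. PLAUR, at 1.25, lies beyond every gene of the 5 lists, of which FOSL1 at 0.81 comes nearest. Nothing is read from its place, since the set was chosen by the difference of PLAUR.

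The genes whose pattern over the 4 arrays was closest to that of PLAUR were sought among the 11205 other genes with a mean level at or above the median, by the Euclidean distance between values centred on each gene's mean. The closest was AARS1, the cytosolic alanyl-tRNA synthetase, at a distance of 0.025 (log2). Its level was 13.40 and 14.00 on the PRSS8 arrays, against 12.71 and 12.23 on the control arrays, so its differences were 0.69 within number 1 and 1.77 within number 2, against 0.69 and 1.81 for PLAUR. The next was TNFRSF12A, the receptor for the cytokine TWEAK, at a distance of 0.24. It was at 11.68 and 12.37 on the PRSS8 arrays, against 11.32 and 10.61 on the control arrays. SRPRA, a subunit of the receptor that docks ribosomes at the endoplasmic reticulum, followed at 0.36, then SLC25A33, a mitochondrial nucleotide carrier, at 0.44 and FBXO16, an F-box protein, at 0.46. All 5 were lowest on a control array and highest on the PRSS8 array of number 2, as PLAUR was. This follows from their selection by distance to PLAUR on these same values, so it is no result about them. The distance rests on 4 arrays that these genes share, and PLAU, at 0.84, had 96 other genes nearer to PLAUR than itself.

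**Figure D4:**
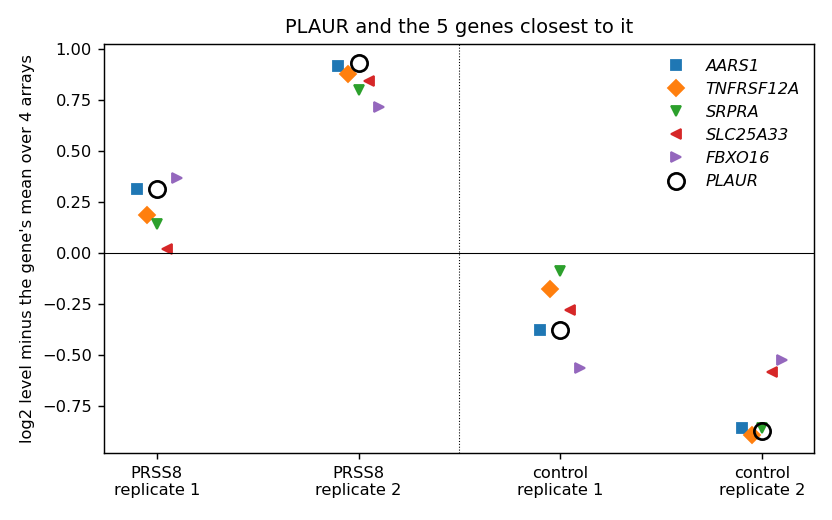
Log2 level minus the gene's mean over the 4 arrays (vertical axis) on each array (horizontal axis) for PLAUR (black circles) and the 5 genes closest to it (coloured marks, shifted sideways for legibility). AARS1 lies on PLAUR on every array, within a distance of 0.025, while the other 4 differ from it by distances of 0.24 to 0.46.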

How the data were processed

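Each deposited value is the log2 level of a probe set of an Affymetrix whole-transcript array. The authors used Affymetrix Expression Console 1.3.1 and RMA, per the submitters' processing notes. Joint normalization of the 4 arrays and the annotation's genome build are not given in the sources used here. RMA shrinks differences of dim probe sets, and without scanner files background and detection could not be computed. The number of arrays limits the precision.

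From 70523 rows, 67528 transcript clusters were kept (control and exon-level rows, 2995 in all, were left out). Of these, 23781 had 1 symbol. The current symbol was looked up through the Entrez identifier for 21497, whether or not it had changed, and through a unique older symbol for 306. Each gene was represented by its probe set of highest mean, giving 22411 genes with no filter on level. The groups were tested by limma 3.58.1 under R 4.3.3 (lmFit, eBayes with an intensity trend, two-sided, Benjamini-Hochberg over all genes), without a term for the replicate number. The p-values and SEs measure the spread between these arrays, since the labels do not say what separates the replicates. That spread includes any shift shared by arrays of the same number. The code was tested on simulated data with independent noise. These lacked the shift shared by arrays of the same number, so that check does not bear on the SEs or counts here. The genes and the lists were chosen with earlier results of these data known. Named were the 6 genes, PRSS8, from each list the 3 of highest level and the 2 of largest difference with 1 sign within both numbers, and the 5 genes nearest to PLAUR; CD68, the epithelial markers, ITGAV and VTN were named after their values or absence were seen. Alternatives were other normalizations, variance models, filters, probe set rules, fold sizes, the replicate block and leaving out each array.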

Additional observations from a re-analysis of the deposited data

How the results depend on the processing

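The limma counts of 0 higher and 0 lower genes held under all 3 further normalizations, both other variance models, both filters on level, both other probe set rules and the replicate block, and ran from 0 to 5 higher and from 0 to 59 lower with an array left out: 3 and 59 without control replicate 1, and 5 and 3 without control replicate 2. None of the 6 genes passed with an array left out (smallest adjusted p in limma 0.9998). The count of genes at least 1.5-fold apart, 16 higher and 8 lower, was 7 and 2 at 2-fold, 1239 and 1246 with no fold limit, 103 and 35 when the 1.5-fold was asked within both numbers instead, and 52 and 50 over every transcript cluster. It was 28 higher after median centring and 5 lower when probe sets of a gene were averaged. With an array left out it ran from 60 to 682 higher and from 63 to 421 lower, by construction since fewer arrays have to be apart. PLAUR stayed at least 1.60-fold apart under every setting tried, its difference ran from 1.16 to 1.28 over the other settings and from 0.94 (without PRSS8 replicate 2) to 1.56 (without PRSS8 replicate 1) with an array left out. The difference of TIMP1 was reversed, at −0.21, without PRSS8 replicate 2, and at most 1.12 with an array left out (without PRSS8 replicate 1). The differences of PLAUR, PLAU, PLAT, PLGRKT and MMP14 kept their sign under all settings run, but some came close to 0. With an array left out, PLAU ran from 0.20 to 0.74 and PLAT from 0.04 to 0.15. PLGRKT ran from 0.0068 to 0.21 and MMP14 from −0.23 to −0.085. PLGRKT gave no value under the filter at the median level. With the replicate block, the SE of PLAUR was 0.31 in place of 0.56 and its adjusted p in limma 0.94. Same-numbered arrays deviated together from their group means (r = 0.91 across genes), and the SEs of the main fit, without a replicate term, include this shared shift. The labels do not say that a number marks a shared culture, and with 2 pairs what it marks was not tested. Median centring moved the median difference of all genes to 0.03.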

Other observations

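Some genes around the receptor differed far more between the replicate numbers than between the groups. The integrin subunit ITGB1 was at 13.01 on replicate 1 and 9.59 on replicate 2 with PRSS8, and at 12.79 and 9.25 with the control vector. The subunit ITGAV was at 8.67 and 5.63 with PRSS8, and at 9.21 and 5.63 with the control vector. The sheddases ADAM10 and ADAM17 were lower by 2 or more (log2) on replicate 2 in both groups as well. Over all genes, 845 were lower by at least 2 on replicate 2 in both groups and 76 were higher by as much, and none of the 6 urokinase receptor system genes was among them (0).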
